A study of Mus musculus with 5 samples.

Results

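The EBF family of transcription factors was followed here in the embryonic mouse medial ganglionic eminence (MGE), a source of cortical interneurons in the ventral telencephalon, in embryos with and without the homeodomain factors Dlx1 and Dlx2. The 3 genes Ebf1, Ebf2 and Ebf3 were represented by every probe set whose single gene symbol in the platform annotation was one of them. This gave 11 of 34945 singly named probe sets, and 3 of 18193 genes. The genes were chosen because Ebf1 was lower and Ebf3 higher in mutants. Their mutant minus wild type (WT) differences are therefore described without a test. Tests are given for culture against tissue across both genotypes, a contrast that the choice did not use. Ebf3 is left out of them, as it was bright enough to test only through the mutant arrays. All 5 Affymetrix arrays carried RNA from the rostral ventricular and subventricular zones of the MGE from E15.5 embryos. They comprised Dlx1/2 mutant tissue (2 arrays), WT tissue (1 array), primary neuronal cultures of those zones from Dlx1/2 mutants (1 array) and the same cultures from WT embryos (1 array). The labels name the mutants by both genes and mark them −/− in the titles. They do not give the allele, the strain, the days in culture, or whether separate embryos or pools of embryos lie behind the pair of mutant tissue arrays. The spread that p-values measure here may thus be technical.

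EBF proteins (early B cell factor, also called Olf or COE) share a DNA-binding domain and a helix-loop-helix dimerization domain, and bind a palindromic site as dimers. Ebf1 is needed for B lymphocyte commitment, and in the forebrain it is known from differentiating striatal neurons. Ebf2 is known from cerebellar Purkinje cells, Cajal-Retzius cells and brown fat, and Ebf3 from olfactory neurons and from early neurons leaving the cell cycle. In Xenopus, EBF factors act in the neuronal differentiation cascade downstream of neurogenin.

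Signals below are quantile-normalized linear intensities. Values under 5.15, the pooled 20th percentile, were treated as equal to it (the floor) before log2 was taken. The targeted genes followed the labels. Dlx1 read 3.01 and 1.0 in mutant tissue against 3195 in WT tissue, and 1.20 in mutant culture against 602 in WT culture. Dlx2 read 18.6 and 12.2 in mutant tissue against 1083 in WT tissue, and 22.2 in mutant culture against 340 in WT culture. Of the 6 MGE markers, Lhx6 and Gad1 lay between 383 and 1545 on every array, though both read lower in mutants within each preparation. Lhx6 read 894 and 936 in mutant tissue against 1332 in WT tissue, and 383 in mutant culture against 900 in WT culture. Gad1 read 511 and 513 in mutant tissue against 593 in WT tissue, and 894 in mutant culture against 1545 in WT culture. Lhx8, a LIM-homeodomain gene of ventral telencephalic neurons, was lower in mutants as well. Lhx8 read 164 and 157 in mutant tissue against 1513 in WT tissue, and 15.4 in mutant culture against 59.7 in WT culture. Nkx2-1, which specifies the MGE, read 59.8 and 75.3 in mutant tissue, 41.1 in WT tissue, 12.4 in mutant culture and 17.0 in WT culture. Gad2 read 403 and 393 in mutant tissue against 615 in WT tissue, and 228 in mutant culture against 395 in WT culture. Sox6 was not lower in mutants as a group. It read 804 and 893 in mutant tissue against 808 in WT tissue, and 485 in mutant culture against 454 in WT culture. Tested were the 11063 genes with a mean above the pooled median signal of 27.8, and over them the difference between the mutant tissue arrays had an SD of 0.32 (log2).

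The sequences just upstream of Ebf1 and Ebf3 are shown because these genes differed in opposite directions in mutants that lack homeodomain factors. Each is the 250 bases before a RefSeq start (GRCm38.p6), on the strand of the gene. Capitals mark matches to TAATT, the core letters that many homeodomain proteins bind, or to CCCNNGGG, the core of the EBF palindrome. Both strands were searched.
Ebf1, chr11:44617850-44618099, plus strand: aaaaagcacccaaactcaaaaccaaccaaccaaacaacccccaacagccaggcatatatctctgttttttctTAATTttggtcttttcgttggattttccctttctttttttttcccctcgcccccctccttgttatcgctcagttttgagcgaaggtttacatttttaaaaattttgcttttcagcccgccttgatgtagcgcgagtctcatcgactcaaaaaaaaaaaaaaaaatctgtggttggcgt
Ebf3, chr7:137314446-137314695, minus strand: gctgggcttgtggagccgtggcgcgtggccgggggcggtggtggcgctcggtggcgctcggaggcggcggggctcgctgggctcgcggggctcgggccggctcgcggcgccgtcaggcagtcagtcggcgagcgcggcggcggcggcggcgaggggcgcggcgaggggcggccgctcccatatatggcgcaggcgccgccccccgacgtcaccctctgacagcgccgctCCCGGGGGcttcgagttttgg
The Ebf1 window held 1 TAATT, at −178 to −174 from the start. The Ebf3 window held no TAATT and 1 CCCNNGGG, at −21 to −14. A second Ebf1 start, at chr11:44619978-44620227, had none of these letters. The longer form TAATTA, which contains TAATT, was not found in any of the 3 windows. Of 32851 RefSeq windows of this length, 25.0% held TAATT, 4.84% TAATTA and 11.8% CCCNNGGG. The windows differed in composition, with 40.0% G and C at the first Ebf1 start, 52.0% at the other Ebf1 start and 80.0% at Ebf3. The Ebf3 window lies within the gene's overall RefSeq span (chr7:137193671-137322805).

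Ebf1 was lower in mutants than in WT in both preparations, by about the same amount at its brightest probe set. That probe set, 1416301_a_at, read 107 and 92.0 in mutant tissue against 281 in WT tissue. In culture it read 25.1 in the mutant against 70.9 in WT. The mutant array was the dimmer one in each preparation, but WT culture lay below both mutant tissue arrays, so the 3 mutant and the 2 WT arrays overlapped. The mutant minus WT difference was −1.50 (log2) in tissue, from −1.40 and −1.61 for the single mutant arrays, and −1.50 in culture. Both are 2.83-fold lower in mutants. Among the genes tested, 20.6% had each mutant array below the WT array of its preparation, and 1.83% were at least 2-fold lower in mutant culture. As the genes were chosen on this contrast, nothing is read from these shares.

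The other Ebf1 probe sets gave smaller differences in tissue. Probe set 1439789_at read 78.2 and 78.2 in mutant tissue against 141 in WT tissue, and 21.8 in mutant culture against 51.0 in WT culture. Probe set 1448293_at read 102 and 79.9 in mutant tissue against 146 in WT tissue, and 14.1 in mutant culture against 47.2 in WT culture. Probe set 1416302_at read 77.6 and 78.2 in mutant tissue against 111 in WT tissue, and 14.6 in mutant culture against 37.6 in WT culture. All 3 had every mutant array below the WT array of its preparation. Their differences in tissue were −0.85, −0.69 and −0.51, against −1.22, −1.74 and −1.37 in culture, so the size of the tissue difference depended on the probe set. The designs are not all independent, as 1416301_a_at, 1448293_at and 1416302_at carry 1 source sequence in the annotation. The fifth Ebf1 probe set, 1457441_at, was at the floor on 4 of 5 arrays and measured nothing above 6.20.

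Ebf3 was higher in mutants at its brightest probe set in both preparations. Probe set 1452751_at read 68.2 and 98.1 in mutant tissue against 14.2 in WT tissue. In culture it read 35.4 in the mutant against 9.90 in WT. All 3 mutant arrays lay above both WT arrays, as they did in 8.29% of the genes tested. The difference was 2.52 in tissue (5.74-fold) and 1.84 in culture (3.57-fold). Each mutant array lay above the WT array of its preparation in 22.9% of the genes tested, and 1.85% were at least 2-fold higher in mutant culture. Again nothing is read from these shares.

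The other Ebf3 probe sets showed the difference mainly in tissue. Probe set 1460666_a_at read 55.7 and 41.8 in mutant tissue against 11.1 in WT tissue, but 13.1 in mutant culture against 9.46 in WT culture. Its differences were 2.12 in tissue and 0.47 in culture. Probe set 1428349_s_at read 63.6 and 57.3 in mutant tissue against 2.11 in WT tissue, at least 11.7-fold higher, since WT was at the floor. In culture it was at the floor in both genotypes, with 1.62 in the mutant and 1.01 in WT. All 3 probe sets were thus higher in mutant tissue, and only 1452751_at showed a difference above 2-fold in culture. In the array maker's naming, the ending _s_at marks a probe set whose probes can match more than 1 gene. The annotation ties all 3 to the Entrez identifier 13593. RefSeq lists Ebf3 also as an older synonym of Ebf4.

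Ebf2 was dim, and none of its 3 probe sets passed the intensity filter. Probe set 1418494_at read 32.7 and 24.7 in mutant tissue against 15.7 in WT tissue, and 10.1 in mutant culture against 1.95, below the floor, in WT culture. Probe set 1449102_at read 23.8 and 12.2 in mutant tissue against 0.931 in WT tissue, and 6.05 in mutant culture against 5.27 in WT culture. Probe set 1449101_at read 11.7 and 15.54 in mutant tissue against 1.97 in WT tissue, and 1.63 in mutant culture against 3.45 in WT culture, both below the floor. Every Ebf2 probe set was higher in both mutant tissue arrays than in WT tissue, by 0.86, at least 1.73 and at least 1.39 (log2). In culture the probe sets differed by at least 0.97, by 0.20 and by 0, at levels where the array hardly measures a difference.

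**Figure D1:**
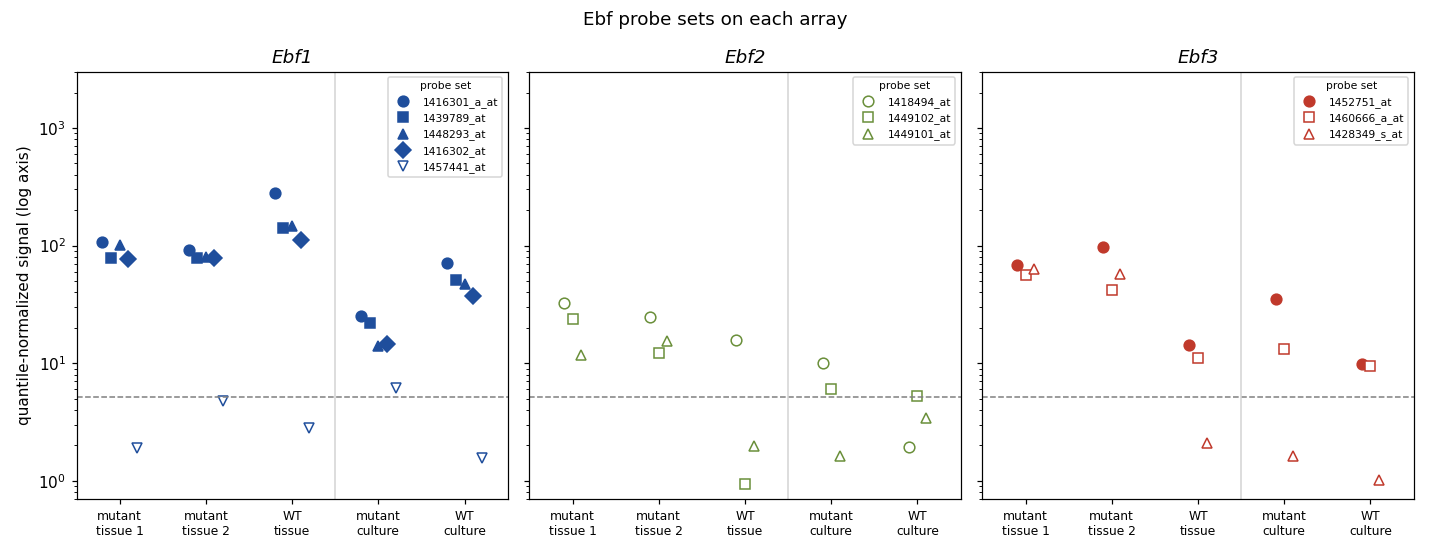
Quantile-normalized signal (log axis) of each Ebf probe set on each of the 5 arrays, with mutant arrays left of WT arrays in tissue and in culture. Each point is 1 array; filled symbols are the 5 probe sets whose mean passed the intensity filter, open symbols the other 6, and the dashed line is the floor of 5.15. The 4 filled Ebf1 probe sets are lower in the mutant within each preparation, while Ebf2 and Ebf3 are highest in the mutant tissue arrays.

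Counted over probe sets, 4 of the 5 for Ebf1 were lower in mutant than in WT tissue and the same number in culture. For Ebf2 and Ebf3, 6 of 6 were higher in mutant tissue and 4 of 6 in mutant culture. The other 2 were at the floor in both genotypes in culture. Several probe sets of a gene share a source sequence, and some values lie near the floor. The genes were chosen on this contrast, and the share over all probe sets was not counted. Nothing is therefore read from these counts. Only 5 of the 11 probe sets had a mean above the filter. The Ebf3 probe set 1452751_at stood just inside it with a mean of 4.998 (log2) against the limit of 4.796, and 1460666_a_at just outside it with 4.32.

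**Figure D2:**
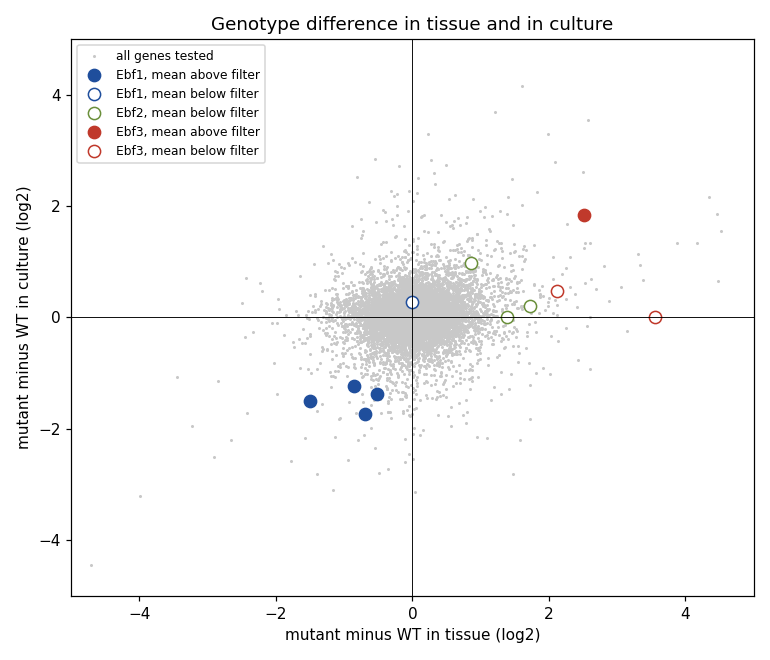
Mutant minus WT difference (log2) in tissue, the mean of 2 mutant arrays minus 1 WT array, on the x axis and in culture, 1 array each, on the y axis. Coloured points are the 11 Ebf probe sets (open where the mean is below the filter) and grey points the 11063 genes tested, of which 5 lie outside the axes; 4 Ebf1 probe sets sit at the lower left and Ebf3 1452751_at at the upper right, at 2.52 and 1.84.

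The order of the groups differed between the genes. For Ebf1 1416301_a_at it ran from WT tissue, through mutant tissue and WT culture, to mutant culture. The neighbours closest to each other were mutant tissue and WT culture, with a gap of 0.37 (log2) from the lower mutant tissue array, against 0.22 between the mutant tissue arrays. For Ebf3 1452751_at it ran from mutant tissue, through mutant culture and WT tissue, to WT culture. Here WT tissue and WT culture lay 0.52 apart, about as far as the mutant tissue arrays from each other (0.53), and did not differ beyond that spread. For Ebf2 1418494_at it ran from mutant tissue, through WT tissue and mutant culture, to WT culture at the floor. The lower mutant tissue array was 0.66 above WT tissue, against 0.40 between the mutant tissue arrays.

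Ebf1 was lower in culture than in tissue in both genotypes. Across both genotypes 1416301_a_at fell by 1.99 ± 0.20 (log2, SE), a 3.96-fold fall, with an adjusted p of 0.00026 in limma. The culture minus tissue difference was −1.98 in mutants and −1.99 in WT, and both culture arrays lay below all 3 tissue arrays. In that comparison 38.8% of the genes tested passed at an adjusted p of 0.05, and 19.2% were lower in culture. Both culture arrays lay below all tissue arrays in 29.2% of genes. A change with preparation was therefore common, and that of Ebf1 was among the larger ones, since 0.795% of genes had a lower value. Fitted among all probe sets, the other 3 bright Ebf1 probe sets fell by 1.68, 2.23 and 2.05 (1439789_at, 1448293_at and 1416302_at; limma adjusted p 0.0013, 0.0012 and 0.0014). In mutants alone, where no WT array enters the difference, 1416301_a_at fell by 1.98 ± 0.25 (limma adjusted p 0.00018), in a comparison where 42.8% of genes passed and 21.4% were lower. With no intensity filter this call was lost (adjusted p 0.10).

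Ebf3 1452751_at also read lower in culture. Its mean passed the filter only through the mutant arrays, as WT tissue (14.2) and WT culture (9.90) lay below the limit of 27.8. The mutant values by which it was chosen also enter this difference, so it is described without a test. Across both genotypes it differed by −0.92 ± 0.39, in mutants alone by −1.21 ± 0.44 and in WT by −0.52. With the deposited scaling kept, the value in mutants was −1.30, and with a lower floor it was −1.21. The other Ebf3 probe sets were too dim to test. In mutants 1460666_a_at was 3.67-fold lower in culture than in tissue, and 1428349_s_at at least 11.7-fold lower, as its culture value was at the floor. In WT 1460666_a_at was 1.17-fold lower in culture, and 1428349_s_at was at the floor in both preparations. For Ebf2 1418494_at the differences were −1.49 in mutants and, with WT culture at the floor, at least 1.61 lower in WT.

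The interaction of genotype and preparation asks whether the mutant minus WT difference itself differs between culture and tissue. In it 4.48% of genes passed. It is built from the mutant minus WT values by which the Ebf genes were chosen, so theirs are described without a test. For Ebf1 1416301_a_at the interaction was 0.00 ± 0.38 (log2, SE). It was −0.37, −1.05 and −0.86 for 1439789_at, 1448293_at and 1416302_at. For Ebf3 1452751_at it was −0.68 ± 0.68. These SEs are large for both genes, and the values do not show that the genotype difference was equal in tissue and culture.

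**Figure D3:**
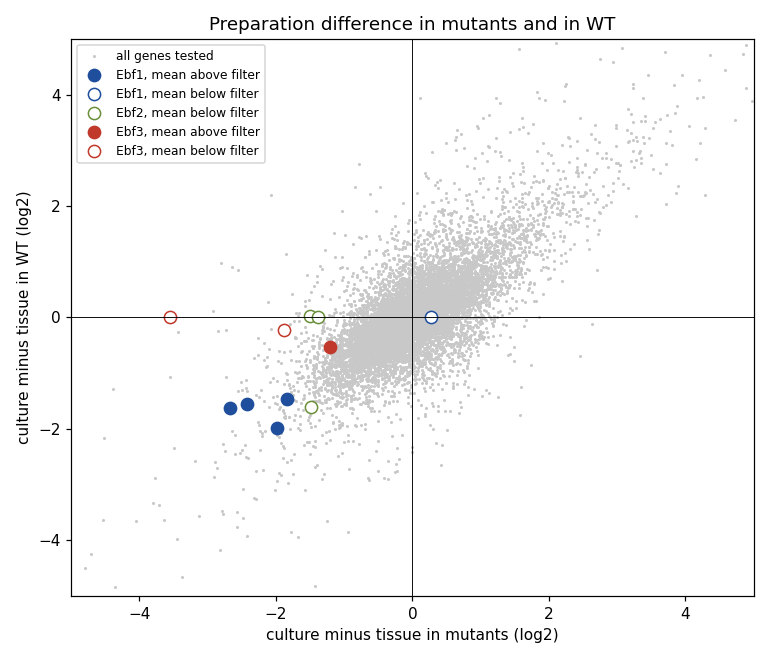
Culture minus tissue difference (log2) in mutants (x axis, 1 culture array minus the mean of 2 tissue arrays) and in WT (y axis, 1 array each). Coloured points are the 11 Ebf probe sets (open where the mean is below the filter) and grey points the genes tested, of which 34 lie outside the axes; the 4 bright Ebf1 probe sets are lower in culture in both genotypes, from −1.84 to −2.68 in mutants and from −1.47 to −1.99 in WT.

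The preparations differed in cell content as well. In bulk samples, fewer cells of a type and less RNA per cell cannot be told apart. Of 10 mural and mesenchymal markers tested (15 listed), a cell type in which Ebf1 is also known, 3 were higher and 4 lower in culture across both genotypes. The contractile gene Acta2 rose in culture by 7.43 ± 0.12, and the collagen gene Col1a2 rose by 2.30 ± 0.24. Tagln, another contractile gene, also rose, with 6326 in mutant culture and 7034 in WT culture, against 29.0 and 31.4 in mutant tissue and 3.90, below the floor, in WT tissue. The pericyte genes Rgs5 and Vtn fell, as did the pericyte channel genes Kcnj8 and Abcc9 (signals of 9.87 and 2.73 in mutant culture and 8.81 and 2.80 in WT culture, against 101 to 173 on the tissue arrays). The summed signal of the 15 was 20815 in mutant culture and 21581 in WT culture, against 1343 and 1434 in mutant tissue and 1574 in WT tissue. Without Acta2 and Tagln the direction turned, and the other 13 summed to 620 in mutant culture and 678 in WT culture, against 1229 and 1312 in mutant tissue and 1498 in WT tissue. Endothelial markers summed to 219 in mutant culture and 173 in WT culture, against 815 to 988 in tissue, and of 4 tested Cldn5 and Emcn fell (Emcn with a limma adjusted p of 0.018, and 0.070 and 0.062 without mutant tissue replicate 1 or 2). Red blood cell markers summed to 9.10 in mutant culture and 14.6 in WT culture, against 9416 to 10423 in tissue, and all 3 tested (Hbb-y, Hba-x and Alas2) fell. Of 5 microglia markers tested Csf1r and C1qb fell (C1qb with a limma adjusted p of 0.021, and 0.081 and 0.073 without mutant tissue replicate 1 or 2), and the sums were 436 in mutant culture and 525 in WT culture, against 687 to 742 in tissue. Of 6 MGE markers, Nkx2-1, Lhx6, Lhx8, Gad2 and Sox6 fell and Gad1 rose. Of all genes tested, 19.6% were higher and 19.2% lower in culture. B cell markers were dim on average: none of the 8 named passed the filter, and the list summed to between 46.8 and 114. The antigen receptor genes Cd79a and Cd79b stayed at or below 5.53, while Igll1 read up to 39.5 (WT culture) and Pax5 up to 34.8 (mutant tissue replicate 2). The part of these cell types in the Ebf1 fall was not tested.

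Between genotypes, across both preparations, 1.07% of genes passed in limma. Of the markers tested, 0 of 10 mural, 0 of 4 endothelial, 0 of 3 red blood cell and 0 of 5 microglia genes passed (1, 1, 0 and 0 at an unadjusted p under 0.05). Of the 6 MGE markers 2 fell. Lhx8 fell by 2.69 ± 0.28 (limma adjusted p 0.0049, and 0.022 and 0.0092 without mutant tissue replicate 1 or 2). Gad2, a GABA-synthesizing enzyme gene, fell by 0.70 ± 0.12 (limma adjusted p 0.046, and 0.24 and 0.21 without mutant tissue replicate 1 or 2). In tissue alone, where 15.3% of genes passed (8.59% higher and 6.70% lower in mutants), Lhx6, Lhx8 and Gad2 fell, as did the red blood cell gene Hba-x, and Tagln rose. The part of these cells in the Ebf differences was not tested. Calls in tissue alone and in the interaction, here and below, rest on 1 residual degree of freedom and on a prior variance that follows intensity. Without that intensity trend, 2 genes passed in tissue, 0 of them higher in mutants, and 0 passed in the interaction. Xist, the RNA that coats the silenced X chromosome in female cells, was lower in mutants. It read 104 and 136 in mutant tissue against 637 in WT tissue, and 99.4 in mutant culture against 327 in WT culture (−2.12 ± 0.21, limma adjusted p 0.0038). Among Y-linked genes, Kdm5d was higher by 1.40 ± 0.24 (limma adjusted p 0.043, and 0.24 and 0.15 without mutant tissue replicate 1 or 2). Eif2s3y differed by 1.55 across both preparations without passing, but rose in mutant tissue by 2.31 ± 0.22 (limma adjusted p 3.8e-05), with 170 and 173 in mutant tissue against 34.7 in WT tissue. Its interaction passed too (−1.77 ± 0.31, limma adjusted p 0.013). Uty differed by 0.70 across both preparations without passing. The part of embryo sex in the Ebf differences was not tested.

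Genes linked to EBF factors by background knowledge were set beside the family. Of the EBF-binding zinc finger genes, Zfp521 read 333 and 328 in mutant tissue against 223 in WT tissue, and 152 in mutant culture against 103 in WT culture. It rose in mutant tissue by 0.57 ± 0.14 (limma adjusted p 0.016), did not pass across both preparations (0.56, adjusted p 0.14 in limma), and in culture it fell by 1.12 ± 0.14 (limma adjusted p 0.00068). Zfp423 differed by 0.53 across both preparations without passing (adjusted p 0.60 in limma). It read 43.7 and 80.0 in mutant tissue against 30.9 in WT tissue, and 35.6 in mutant culture against 36.0 in WT culture. The fourth family gene, Ebf4, was too dim on average to test. Its signals were 25.9 and 29.7 in mutant tissue, 19.6 in WT tissue, 27.7 in mutant culture and 36.7 in WT culture. The 2 zinc finger genes had a median genotype difference of 0.55, against 0.00 over all genes. As neither gene passed across both preparations, nothing is read from this median.

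Of 14 striatal projection neuron genes tested (21 listed), Pbx3 rose across both preparations and 0 fell in limma (at an unadjusted p under 0.05, 4 were higher and 2 lower in mutants). Pbx3, a TALE homeodomain gene, rose by 1.45 ± 0.12 (limma adjusted p 0.0018, and 0.017 and 0.0068 without mutant tissue replicate 1 or 2). In tissue alone 3 rose and 2 fell, 5 of 14 against 15.3% of all genes. Pbx3 was one of the 3. Isl1, a LIM-homeodomain factor of striatonigral neurons, rose there by 0.81 ± 0.08, and Bcl11b, a zinc finger factor of striatal neurons, by 0.35 ± 0.08. The zinc finger gene Zfp503 fell by 1.09 ± 0.15, and Tac1, which encodes substance P, by 0.89 ± 0.16. Between the culture arrays, 1 per genotype, both went the other way. Zfp503 read higher in the mutant by 0.32, and Tac1 by 1.64 (143 against 45.8). The mutant minus WT difference in culture was 1.22 for Pbx3, 0.20 for Isl1 and −0.09 for Bcl11b. The list's median was 0.18 across both preparations and −0.02 in tissue, against 0.00 over all genes in each. In culture 5 of the 14 were lower than in tissue and 1, the enkephalin gene Penk, higher, near the 38.8% of all genes that passed. Isl1 fell furthest of those, by 2.93 ± 0.15, beside Zfp503 (−1.63), Pbx3 (−1.002), Bcl11b (−0.83) and Meis2 (−0.48).

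Of 9 proneural and neuronal differentiation factors tested (18 listed), 0 passed across both preparations in limma (6 at an unadjusted p under 0.05, 5 of them higher in mutants), with a median of 0.42. In tissue 5 rose and 1 fell, against 8.59% and 6.70% of all genes. Neurod2, a bHLH factor of pallial neurons, rose by 2.31 ± 0.46 and Myt1l, a neuronal zinc finger factor, by 1.15 ± 0.12. The neuronal RNA-binding protein genes Elavl3 and Elavl2 rose by 0.76 and 0.32, and Insm1, a zinc finger factor of intermediate progenitors, by 0.27, while Elavl4 fell by 0.38. Between the culture arrays, 1 per genotype, Neurod2 and Insm1 read higher in the mutant, by 1.08 and 1.11. Myt1l and Elavl3 differed there by 0.06 and −0.02, and Elavl2 and Elavl4 by −0.50 and −0.44. In culture 5 of the 9 were lower than in tissue across both genotypes, against 19.2% of all genes: St18 (−4.15), Insm1 (−2.32), Myt1 (−1.81), Elavl4 (−1.08) and Elavl3 (−0.69). The Elavl3 call had adjusted p of 0.062 and 0.061 in limma without mutant tissue replicate 1 or 2.

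Ebf2 and Ebf3 are also known from Cajal-Retzius cells. Of 4 genes of these cells tested (11 listed), 0 passed with genotype across both preparations in limma (1 at an unadjusted p under 0.05), and the chemokine receptor gene Cxcr4 fell in tissue by 1.04 ± 0.16. Reln, the extracellular glycoprotein of these cells, read 46.5 and 45.9 in mutant tissue against 45.9 in WT tissue, and 95.1 in mutant culture against 551 in WT culture. Its interaction passed, at −2.54 ± 0.37 (limma adjusted p 0.0057), while without the intensity trend 0 genes passed. Across both genotypes Reln, Cxcr4 and Ndnf rose in culture and Zic1 fell. Of 5 olfactory sensory neuron genes tested (8 listed), 0 passed with genotype across both preparations in limma (1 at an unadjusted p under 0.05). Lhx2, a LIM-homeodomain factor, rose in mutant tissue by 0.98 ± 0.11, and Gnal, an olfactory G protein subunit gene, rose in culture by 1.03 ± 0.29 (limma adjusted p 0.026, and 0.059 without mutant tissue replicate 2).

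The genes whose log2 signals followed each EBF gene most closely over the 5 arrays were found by Pearson's r among the genes tested. For Ebf1 they were Prpsap1, Taf6, Tmem267, Mettl8 and Reps1, with r from 0.993 to 0.999. For Ebf3 they were B3gat1, Sox9, Usp27x, Lyrm9 and Efnb3, with r from 0.997 to 0.9996. For Ebf2 they were Fat4, Prr14l, Cnnm3, Rapgef5 and Jag1, with r from 0.997 to 0.9996. With 5 points in 4 groups, 155, 126 and 329 genes had an r above 0.95 with Ebf1, Ebf3 and Ebf2, so these names describe the arrays and carry no test. The 4 bright Ebf1 probe sets correlated with each other at r from 0.94 to 0.992.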

How the data were processed

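The authors deposited 1 linear intensity value for each of 45101 probe sets on 5 arrays. The values show that each array was scaled to a mean of 150.0 after trimming 2% at each end. The software that made them is not stated in the labels or the file, and detection calls were not used. Array medians ran from 26.2 to 29.8, so the arrays were quantile normalized, floored at the 20th percentile and put on the log2 scale. The probe set with the highest mean stood for a gene, and 11063 genes with a mean above 4.80 (log2) were tested. Of all 45101 probe sets, 34945 had 1 symbol, 932 had several symbols and 9211 had none here. Of those with 1 symbol, 34741 matched RefSeq by Entrez identifier. The 64 control probe sets were left out.

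Genes were tested with limma 3.58.1 (R 4.3.3), its prior variance following intensity, and p-values were adjusted over all genes (Benjamini-Hochberg). Preparation and genotype effects came from a model with both terms over 5 arrays (2 residual degrees of freedom). The interaction and the effect of preparation in mutants came from a model of the 4 groups, and the tissue genotype effect from 3 arrays (1 residual degree of freedom each). There, single arrays are assumed to vary like the mutant tissue pair. Culture genotypes, 1 array each, received no test. The number of arrays limits the precision. The scripts were tested on simulated data.

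The genes, lists and tests were chosen with earlier results of these data known. Named were all Ebf probe sets, Dlx1 and Dlx2, sex-linked genes, genes of the EBF-related and neuronal lists past the threshold in a comparison (otherwise the 2 with the largest difference), and the 5 genes most like each EBF gene. The rule did not cover cell type markers or genes too dim to test, and those named were chosen after their values were seen. One gene list is not reported here. Sequences are RefSeq's, GRCm38.p6, and no build was used for the arrays. Ebf1 and Ebf3 matched the promoter table. Alternatives were the deposited scaling, a floor at the 10th percentile, no filter, no trend, averaged or separate probe sets, and leaving out either mutant tissue array.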

Additional observations from a re-analysis of the deposited data

How the results depend on the processing

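Under every alternative run, the Ebf1 fall in culture across both genotypes passed (−1.56 to −2.06, limma adjusted p up to 0.025). The mutant minus WT differences of Ebf1 and Ebf3, on which the genes were chosen, kept their sign. Leaving out the filter or the trend cannot change such a difference. Ebf2 was followed only without the filter, so the settings say nothing on its sign. Averaging over the 5 Ebf1 probe sets, 3 of which differed less in tissue and 1 of which was near the floor, gave a smaller genotype difference (−0.88 across both preparations, −0.71 in tissue, −1.11 in culture); Ebf3 and Ebf2 then fall below the filter. The Ebf1 interaction, near 0, changed sign with the deposited scaling (−0.0042) and with averaged probe sets (−0.40). With no filter, Ebf2 could be tested and did not pass (culture minus tissue −1.54, limma adjusted p 0.054).

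Counts of genes past the threshold depended more on the settings. Without an intensity filter they were 1894 for preparation, 485 for preparation in mutants, 389 for genotype in tissue and 0 for genotype across both preparations by limma (1713 at an unadjusted p under 0.05), and 2470 genes differed by 2-fold in culture. Without an intensity trend they were 2682 for preparation in mutants, 2 for genotype in tissue, 4 for genotype across both and 0 for the interaction by limma (1681 at an unadjusted p under 0.05). With averaged probe sets they were 2886, 489, 35 and 4 for the same comparisons. With each probe set fitted on its own they were 6742 for preparation, 7207 for preparation in mutants and 784 for the 2-fold count. Leaving out mutant tissue replicate 1 or 2 gave 2791 and 2932 genes for preparation and 33 and 39 for genotype across both, against 4297 and 118 with both; the other models then have no residual degrees of freedom and were not run. No paired analysis was possible because the labels give no replicate numbers shared between the groups.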

Other observations

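Of 8 proneural and neuronal differentiation factors with a signal but too dim on average to test, 4 were higher in both mutant tissue arrays than in WT tissue, 1 was lower in both and 3 went neither way. The share over all genes too dim to test was not counted, so nothing is read from the counts in this paragraph. The genes named here were chosen after their values were seen. Neurog2, a proneural bHLH factor, read 70.4 and 58.1 in mutant tissue against 8.48 in WT tissue, and 4.59 in mutant culture against 4.21 in WT culture, both below the floor. Nhlh2, a bHLH factor of early neurons, read 38.5 and 61.8 in mutant tissue against 3.24 in WT tissue, and 8.20 in mutant culture against 1.36 in WT culture. Neurod6, a bHLH factor of pallial neurons, read 69.0 and 81.7 in mutant tissue against 0.920 in WT tissue, and 44.2 in mutant culture against 2.67 in WT culture. Neurod4, another bHLH factor, was the lower one, with 14.8 and 9.15 in mutant tissue against 33.1 in WT tissue. In culture it went the other way, with 16.3 in the mutant against 5.18 in WT. Of 6 Cajal-Retzius genes too dim to test, 5 were lower in both mutant tissue arrays and 1 higher. Calb2, the calretinin gene, was among the lower ones, with 14.6 and 6.63 in mutant tissue against 130 in WT tissue, and 6.10 in mutant culture against 61.8 in WT culture.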
